A study of Mus musculus with 16 samples.

Results

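Integrins are paired receptors, made of an alpha and a beta subunit, by which leukocytes hold on to other cells and to matrix. The 10 genes described here encode the subunits of the main integrins of leukocyte adhesion: Itga4, Itga5, Itga6, Itgal, Itgam and Itgav for alpha chains, and Itgb1, Itgb2, Itgb5 and Itgb7 for beta chains. They were chosen by gene name among the 34650 gene names on the array, with earlier results of these data known. Of the 55681 probes on the array, 18 carry one of these names, and all 18 were bright enough in at least 6 of the 8 arrays of a group to be tested.

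An alpha chain reaches the cell surface only together with a beta chain, so the supply of either partner bears on the receptor. In marrow, integrins that bind VCAM-1 and fibronectin hold blood progenitors in place, whereas integrins that bind ICAM-1 let mature leukocytes stop on a vessel wall and leave the blood. Adrenergic signals from sympathetic nerves are known to act on marrow cell traffic.

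RNA of whole bone marrow from 16 mice was measured on 1-colour arrays, 1 array per mouse. The 8 KO chimeras were C57BL/6J mice given a lethal dose of 950 rad and grafted with whole marrow from adrenergic receptor knockout donors, which carry targeted alleles of beta adrenergic receptor genes, Adrb1tm1Bkk among them. The graft was given by one retro-orbital injection, with a stated ratio of 1:4 (donor strain to C57BL/6J) whose units the labels leave out, and marrow was taken after 2 to 3 months. The 8 controls were also C57BL/6J mice that had received 950 rad, with the same treatment text, and their labels name no donor. Receptor loss in blood cells, the donors' genetic background and the graft itself cannot be told apart in this comparison. Host stromal, vascular and nerve cells were C57BL/6J in both groups, and the share of donor cells in the grafted marrow was not measured here. In whole marrow, fewer cells of a type and less RNA per cell cannot be told apart either.

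All levels are log2 of the scanner's processed signal relative to the 75th percentile of the same array, so a value of 0 equals that percentile. Every difference is KO chimera minus control on this scale. The percentile itself was 127 to 545 in KO chimeras, against 231 to 558 in controls (two-sided permutation test, exact p = 0.301). Probes well above background numbered 27755 to 37087 in KO chimeras and 29292 to 38743 in controls (two-sided permutation test, exact p = 0.0692). The brightest probe of the targeted gene Adrb1 read -2.99, -2.41 and -2.19 (lowest, median, highest) in KO chimeras and -2.58, -2.51 and -2.34 in controls, a difference of -0.00041 ± 0.11 (SE, limma adjusted p = 0.999). A dimmer Adrb1 probe differed by 0.95 ± 0.30 (SE, limma adjusted p = 0.0277), and as the deleted stretch was not located here, neither probe checks the genotype.

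Among the 18 integrin probes, 4 were lower in KO chimeras, 1 was higher and 13 did not pass (limma, Benjamini-Hochberg adjusted over all 32689 probes tested, adjusted p under 0.05). The 5 called probes are 27.8% of the 18, close to the 23.5% of all tested probes that were called, of which 12.2% were lower and 11.4% higher. The integrin probes' median difference was -0.048, and that of all tested probes was -0.012. Nothing about integrins as a set is read from a share so near that of all probes. The groups did not overlap for 2 of the 18 probes, both lower in KO chimeras, while 6.34% of all tested probes had groups that did not overlap and 3.28% did so with KO chimeras lower. Calls fell on 4 of the 10 genes, Itga4, Itga5, Itga6 and Itgam, all alpha chains.

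**Figure D1:**
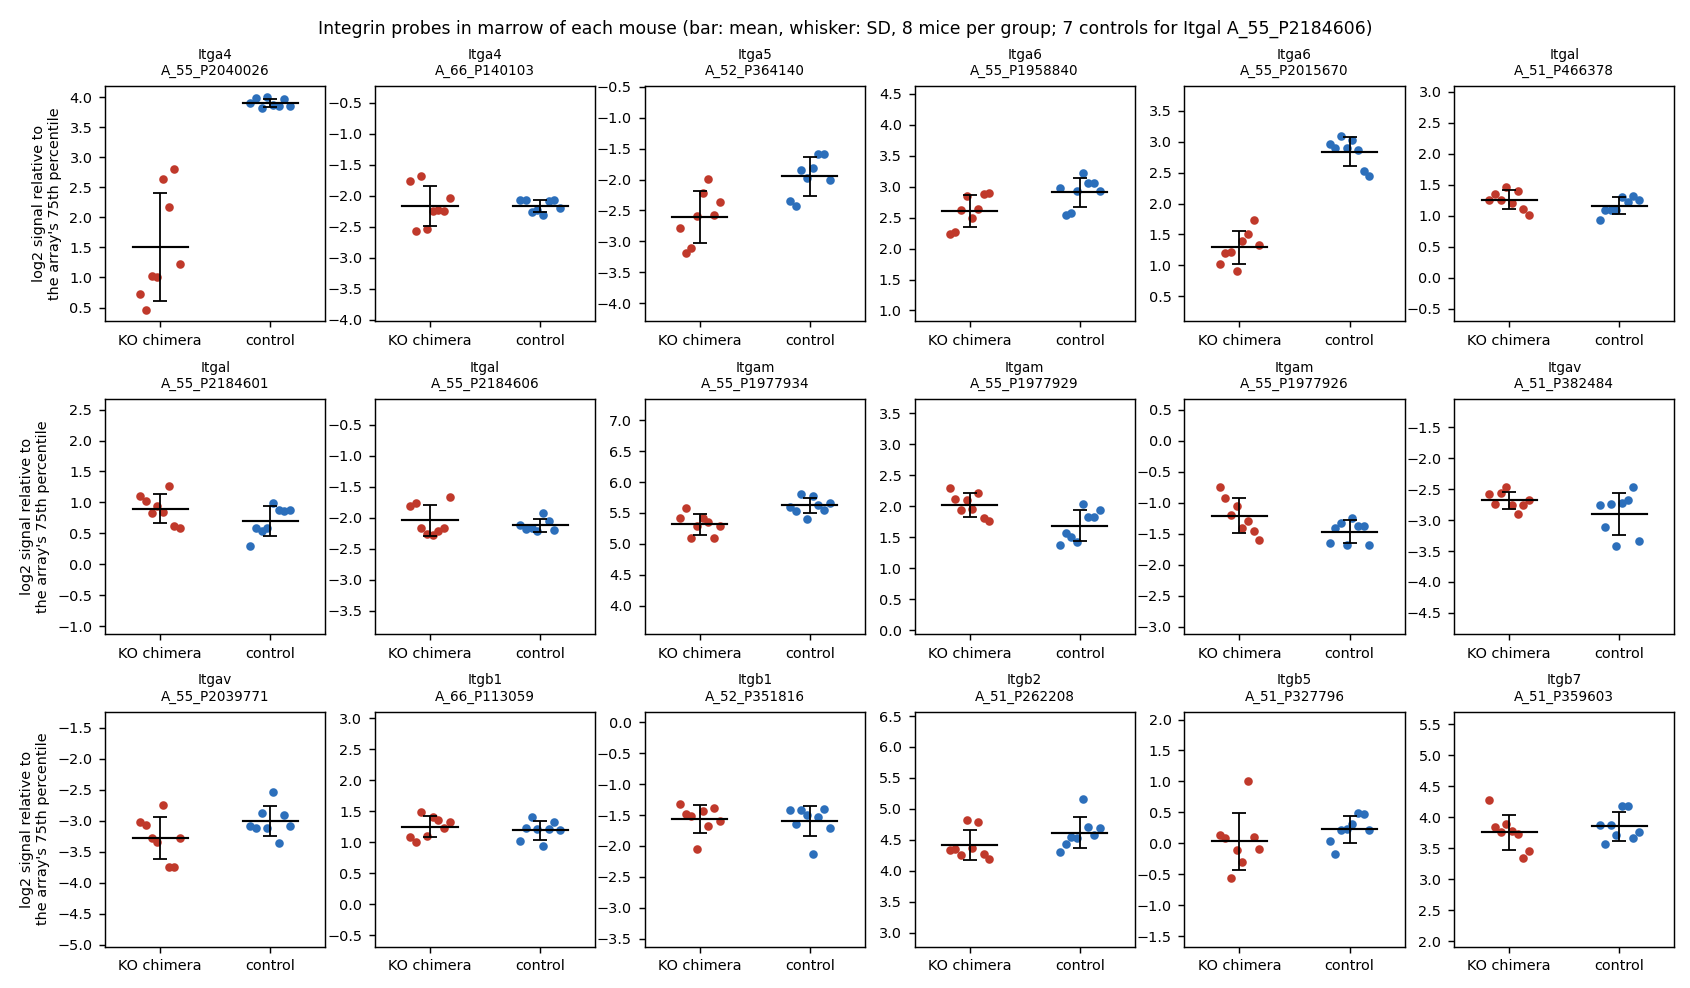
Level of each of the 18 integrin probes in every mouse, KO chimeras (red) left of controls (blue). The y axis is log2 signal relative to the array's 75th percentile, with a range of its own in each panel; points are mice, horizontal bars are means and whiskers are SD. For Itga4 A_55_P2040026 and Itga6 A_55_P2015670 all 8 KO chimeras lie below all 8 controls.

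Itga4 encodes the alpha chain that pairs with the Itgb1 chain to form VLA-4, the receptor for VCAM-1 and fibronectin, and with the Itgb7 chain to form the gut homing receptor for MAdCAM-1. Its brighter probe, A_55_P2040026, was lower in every KO chimera than in any control, and its other probe, A_66_P140103, was level between the groups. Both lie on the plus strand of chromosome 2 of mouse build mm9, the first at chr2:79173193-79173252 and the second at chr2:79153985-79155115. Their starts are 19208 bases apart, and the second, a probe of 60 bases over a stretch of 1131, spans an intron. The probe sequences are given because the difference was seen with one probe and not with the other, and the cause of that split was not tested. Of the first the middle 30 bases are shown, and of the second the whole probe.
Itga4 A_55_P2040026: tataaagatctaacagtcaactccattact
Itga4 A_66_P140103: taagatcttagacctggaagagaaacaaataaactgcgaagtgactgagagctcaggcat

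The A_55_P2040026 probe of Itga4 read 0.72, 0.45, 1.02, 1.01, 2.64, 2.17, 2.81 and 1.22 in KO chimeras 1 to 8. In controls 1 to 8 it read 3.90, 3.98, 3.82, 4.01, 3.88, 3.85, 3.96 and 3.85. KO chimeras 5, 6 and 7 stood above the other 5, controls were tightly grouped, and the highest KO chimera lay a full log2 unit below the lowest control. Group means were 1.50 ± 0.90 in KO chimeras and 3.90 ± 0.07 in controls (SD, n = 8 mice each). The difference was -2.40 ± 0.30 (SE, limma adjusted p = 1.42e-05), a signal 5.28-fold lower in KO chimeras. Only 0.355% of all tested probes had a difference of -2.40 or below.

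The A_66_P140103 probe of Itga4 read -2.57, -2.24 and -1.68 (lowest, median, highest) in KO chimeras and -2.32, -2.15 and -2.07 in controls. KO chimeras lay on both sides of the controls, 2 below all of them and 3 above. The difference was 0.00099 ± 0.12 (SE, limma adjusted p = 0.997) with a 95% interval of -0.25 to 0.26, which does not reach the difference of the first probe. This probe was well above background on all 16 arrays.

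Itga6 encodes the laminin receptor's alpha chain, which pairs with the Itgb1 or the Itgb4 chain and marks stem cells, megakaryocytes and platelets. It showed the same kind of split. Both probes lie on the plus strand of chromosome 2, A_55_P2015670 at chr2:71694756-71694815 and A_55_P1958840 at chr2:71690633-71690692 (mm9), with starts 4123 bases apart. The files give the RefSeq transcript for the first and an Ensembl transcript for the second. The 30 bases shown of each are the middle of the probe, and capitals mark 5 copies of a 3-base repeat that a script found in the first.
Itga6 A_55_P2015670: gggaggtcTTGTTGTTGTTGTTGttctgac
Itga6 A_55_P1958840: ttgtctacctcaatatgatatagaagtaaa

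For Itga6 the A_55_P2015670 probe read 0.91, 1.28 and 1.74 (lowest, median, highest) in KO chimeras and 2.44, 2.90 and 3.09 in controls. Every KO chimera lay below every control. The difference was -1.54 ± 0.12 (SE, limma adjusted p = 8.8e-08), a signal 2.91-fold lower, and 1.35% of all tested probes differed by -1.5 or below. The A_55_P1958840 probe read 2.23, 2.63 and 2.89 in KO chimeras and 2.54, 2.95 and 3.22 in controls. Here 3 KO chimeras lay below all controls and the rest mixed with them. Its difference of -0.30 ± 0.13 did not pass (SE, limma adjusted p = 0.0938), and its 95% interval ran from -0.57 to -0.037.

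Itga5, the alpha chain of the fibronectin receptor with Itgb1, has 1 probe on the array, on the minus strand of chromosome 15 at chr15:103175022-103175081 (mm9). It read -3.19, -2.58 and -1.99 (lowest, median, highest) in KO chimeras and -2.42, -1.92 and -1.58 in controls. In 5 of 8 KO chimeras the value was below every control, and the other 3 overlapped them. Itga5 fell by 0.65 ± 0.18 on the log2 scale (SE, limma adjusted p = 0.0118). This call depended on the processing: with the normexp background correction the difference was -0.16 (adjusted p = 0.326), with slide as a block it was -0.62 (adjusted p = 0.0551), and within scan days 1 and 2 it was -0.91 and -0.39 (adjusted p = 0.0689 and 0.274).

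Itgam encodes CD11b, the alpha chain of Mac-1, by which neutrophils and monocytes bind ICAM-1, fibrinogen and complement. Its 3 probes gave 3 different calls: the brightest was lower in KO chimeras, the next was higher and the dimmest did not pass. The dimmest, at 0.26, ran in the same direction as the higher one, at 0.34, and these were not tested against each other. All 3 probes lie on the plus strand of chromosome 7 of mm9, at chr7:135261755-135261814 (A_55_P1977934), chr7:135260275-135260334 (A_55_P1977929) and chr7:135212140-135212199 (A_55_P1977926). From the start of the first, the second begins 1480 bases away and the third 49615 bases away. The first probe opens with a 2-base repeat, in capitals, that runs for 10 copies and is found in neither of the others; its first 30 bases are shown, and the others are shown whole.
Itgam A_55_P1977934: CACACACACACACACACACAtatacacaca
Itgam A_55_P1977929: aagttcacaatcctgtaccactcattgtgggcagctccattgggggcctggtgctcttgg
Itgam A_55_P1977926: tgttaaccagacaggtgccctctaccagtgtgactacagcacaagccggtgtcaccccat

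The repeat-bearing Itgam probe, A_55_P1977934, read 5.09, 5.32 and 5.58 (lowest, median, highest) in KO chimeras and 5.41, 5.61 and 5.80 in controls. It was below every control in 5 of 8 KO chimeras, and the difference was -0.31 ± 0.09 (SE, limma adjusted p = 0.0151). The A_55_P1977929 probe ran the other way, with 1.75, 2.02 and 2.30 in KO chimeras and 1.38, 1.69 and 2.04 in controls. There 4 KO chimeras lay above every control, and the difference was 0.34 ± 0.11 (SE, limma adjusted p = 0.0415). That higher call was lost, at adjusted p up to 0.0844, when any of 10 of the 16 mice was left out. The A_55_P1977926 probe read -1.59, -1.24 and -0.75 in KO chimeras and -1.69, -1.39 and -1.24 in controls, a difference of 0.26 ± 0.12 that did not pass (SE, limma adjusted p = 0.135). None of the 3 Itgam differences reached a factor of 1.5 in signal; the called ones were 1.24-fold lower and 1.26-fold higher.

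Itgal encodes CD11a, which with the Itgb2 chain forms LFA-1, the ICAM receptor of lymphocytes and most other leukocytes. None of its 3 probes on chromosome 7 passed. The brightest, A_51_P466378, read 1.01, 1.25 and 1.46 (lowest, median, highest) in KO chimeras and 0.93, 1.16 and 1.32 in controls, with 3 KO chimeras above every control. The differences of the 3 probes ran from 0.08 to 0.20, with adjusted p of 0.253 to 0.631, and 1 control had no value for A_55_P2184606 because its spot was an outlier.

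Itgav, the alpha chain of the vitronectin receptors, had a probe on each side of no change. A_51_P382484 read -2.91, -2.72 and -2.46 (lowest, median, highest) in KO chimeras and -3.42, -2.75 and -2.47 in controls, a difference of 0.22 ± 0.13 (SE, limma adjusted p = 0.250). A_55_P2039771 read -3.74, -3.28 and -2.75 in KO chimeras and -3.36, -3.08 and -2.53 in controls, a difference of -0.27 ± 0.14 (SE, limma adjusted p = 0.199). The groups overlapped for both, and the second probe was well above background on 7 of 8 KO chimera arrays and all control arrays.

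No beta chain passed. Itgb1, the partner of most alpha chains named here, was read by 2 probes on chromosome 8, with differences of 0.058 ± 0.091 for A_66_P113059 and 0.035 ± 0.12 for A_52_P351816 (SE, limma adjusted p = 0.700 and 0.873). The brighter Itgb1 probe read 1.00, 1.28 and 1.49 (lowest, median, highest) in KO chimeras and 0.94, 1.21 and 1.41 in controls, a nearly complete overlap. Itgb2 encodes CD18, the chain shared by LFA-1 and Mac-1, and its probe on chromosome 10 read 4.20, 4.34 and 4.81 in KO chimeras and 4.30, 4.56 and 5.16 in controls. Although 3 KO chimeras lay below every control, the Itgb2 difference was -0.19 ± 0.12 (SE, limma adjusted p = 0.292).

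Itgb7, the chain of the gut homing integrins, read 3.35, 3.77 and 4.27 (lowest, median, highest) in KO chimeras and 3.57, 3.82 and 4.19 in controls. The groups overlapped, and the difference was -0.10 ± 0.13 (SE, limma adjusted p = 0.644). Itgb5, which pairs with Itgav in a vitronectin receptor, read -0.56, -0.0088 and 1.02 in KO chimeras and -0.18, 0.23 and 0.49 in controls. Its widest value, 1.02, came from KO chimera 6, and the difference was -0.19 ± 0.17 (SE, limma adjusted p = 0.465). Over the 13 integrin probes that did not pass, differences ran from -0.30 to 0.26, and their 95% intervals stayed between -0.57 and 0.51.

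**Figure D2:**
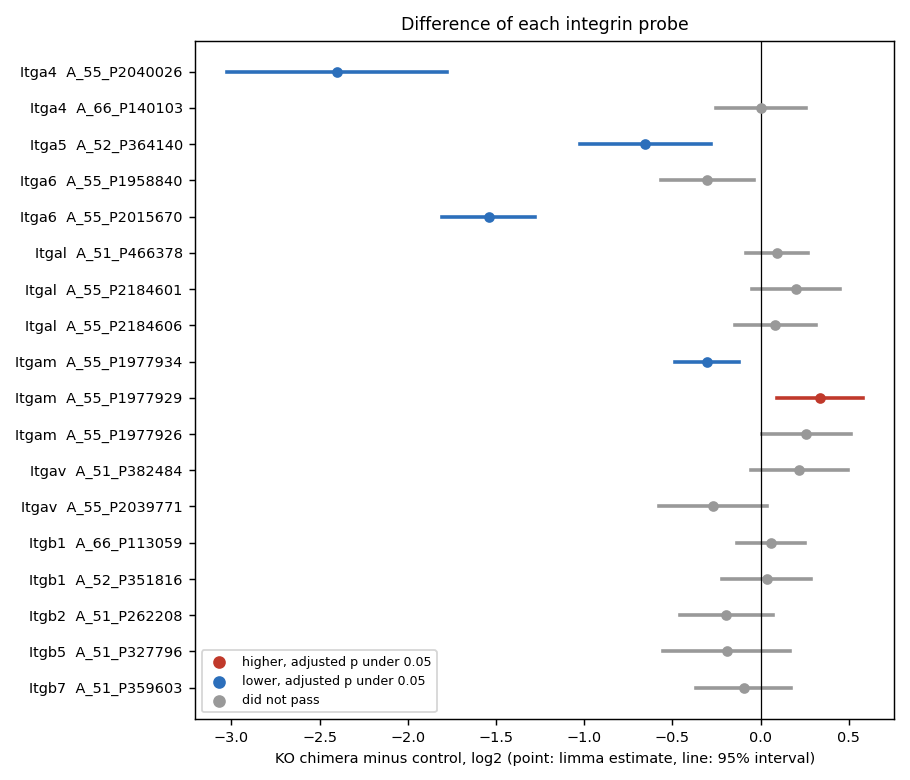
Log2 difference of each integrin probe (KO chimera minus control) with its 95% interval from limma. The 2 longest shifts are Itga4 A_55_P2040026 at -2.40 and Itga6 A_55_P2015670 at -1.54, each beside a probe of the same gene near 0 or at -0.30.

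Since probes of one gene gave different answers, the disagreement was tested directly, as the log2 difference between 2 probes in the same mouse, in which the scaling of the array cancels. The level of one probe against another has no meaning by itself, and only the change of that difference between the groups was read. Of 8 such probe pairs, 5 passed an exact two-sided permutation test with adjustment over the 8, and in 4 of them the groups did not overlap. The share of such pairs among all genes of the array was not computed, so nothing particular to integrins is read from these counts. For Itga4, A_55_P2040026 minus A_66_P140103 was 2.48 to 5.05 in KO chimeras and 5.94 to 6.24 in controls. The pair moved by -2.40 (exact p = 0.0001554, adjusted p = 0.0003108, n = 8 mice per group), and the exact p is the smallest that 8 against 8 mice can give.

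For Itga6, A_55_P1958840 minus A_55_P2015670 was 1.06 to 1.93 in KO chimeras and -0.51 to 0.53 in controls, a shift of 1.24 (exact test, adjusted p = 0.0003108). For Itgam, the repeat-bearing probe minus A_55_P1977929 moved by -0.64, and minus A_55_P1977926 by -0.56, each without overlap (exact test, adjusted p = 0.0003108). So the repeat-bearing Itgam probe, though its difference was small and near the threshold, moved apart from each of the other Itgam probes without overlap of the groups. The other Itgam probes were not tested against each other. For Itgav the pair moved by 0.49 with overlapping groups (exact test, adjusted p = 0.0261), by 0.16 with the normexp correction (adjusted p = 0.120), and its adjusted p was 0.051 without KO chimera replicate 7. The pairs of Itgal and Itgb1 moved by -0.11 to 0.023 and did not pass (exact test, adjusted p = 0.168 to 0.880).

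**Figure D3:**
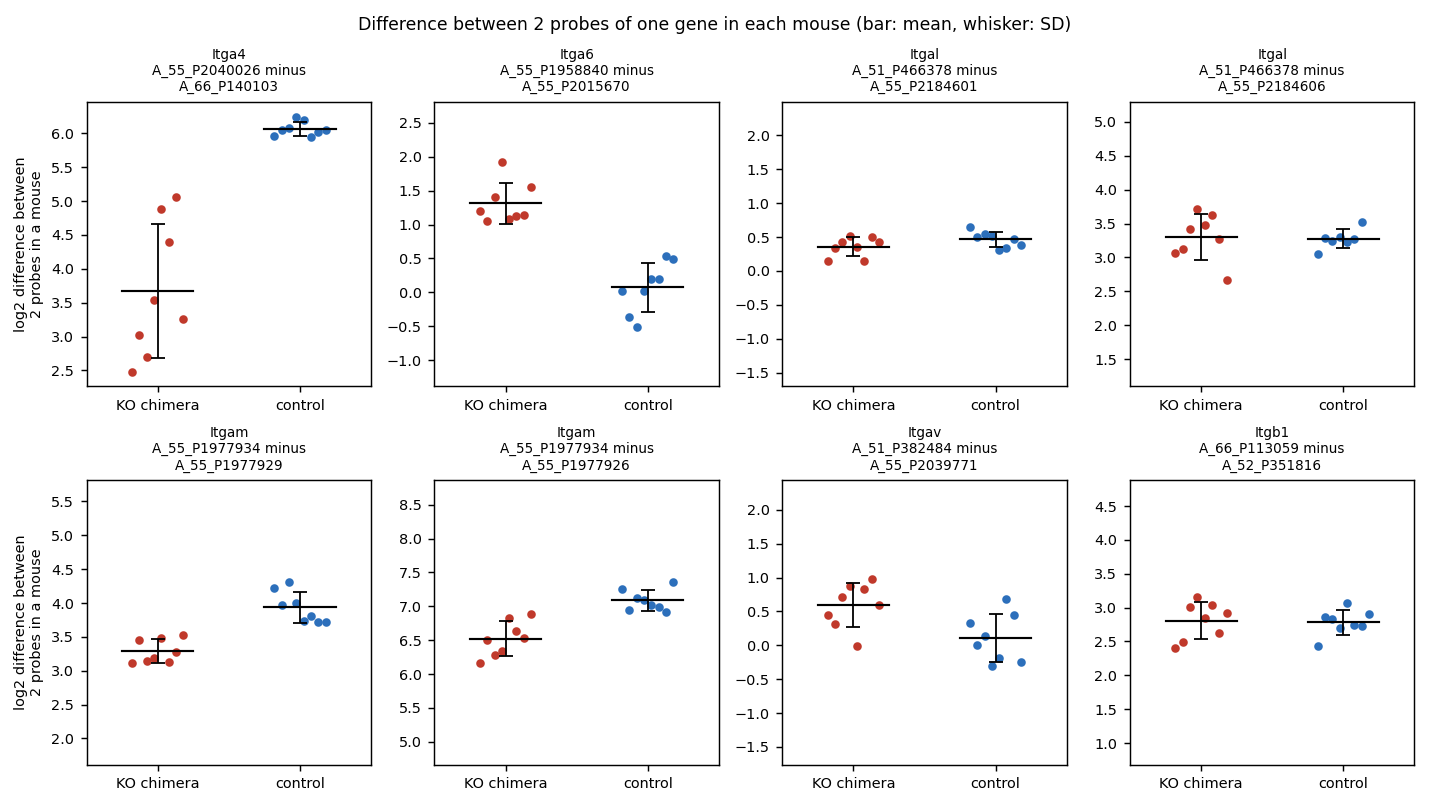
Log2 difference between 2 probes of one gene in each mouse, KO chimeras (red) left of controls (blue), with all panels on the same span of the y axis. Bars are means and whiskers SD. The Itga4, Itga6 and both Itgam panels show groups that do not overlap, while the Itgal and Itgb1 panels overlap.

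The same within-mouse measure was taken for 8 pairs of subunits that form a known receptor, each gene on its brightest probe, to ask whether partners changed unequally. Of the 8, 4 passed (exact two-sided permutation test, adjusted over the 8). The share of other gene pairs that would pass was not computed, so the count is not read as particular to integrins. Itga4 fell relative to Itgb1 by 2.46 and relative to Itgb7 by 2.30 (adjusted p = 0.00062 each), with no overlap of the groups. Both of these pairs rest on the same Itga4 probe, A_55_P2040026, whose own difference was -2.40. Read on the other Itga4 probe, the pairs gave -0.057 and 0.097 (adjusted p = 0.725 each), so the unequal change was seen with 1 Itga4 probe and not with the other.

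Itga5 fell relative to Itgb1 by 0.71 (exact test, adjusted p = 0.0021), although by 0.16 with the normexp correction (adjusted p = 0.315). Itgal rose relative to Itgb2 by 0.29 (exact test, adjusted p = 0.0037), and on its second probe by 0.39 (adjusted p = 0.00186). Itgal minus Itgb2 was -3.39 to -2.99 in KO chimeras and -3.86 to -3.25 in controls, so the groups overlapped. It was the only partner shift past the threshold whose direction and call were the same on both alpha probes read and with the normexp correction. Those Itgal probes start 96 bases apart and were set against the same Itgb2 probe, so they are not independent checks. Itga5 has 1 probe and could not be read on a second. Itgam minus Itgb2 moved by -0.11 on the brightest Itgam probe and by 0.53 on the next (adjusted p = 0.384 and 0.00062). Itga6 minus Itgb1 moved by -0.36 and by -1.60 on the 2 Itga6 probes (adjusted p = 0.0517 and 0.00062). The shift of -0.36 passed when any of 4 mice was left out (exact test, adjusted p of 0.0139 to 0.110 over all omissions). Itgav minus Itgb1 and Itgav minus Itgb5 did not pass, at 0.16 and 0.41 (adjusted p = 0.367 and 0.120), but the second was 0.585 (adjusted p = 0.00124) without KO chimera replicate 6.

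Among KO chimeras, the lower Itga4 and Itga6 values went with the dimmer arrays. KO chimera arrays fell into 4 dimmer ones, with a 75th percentile of 127 to 232, and 4 brighter ones, at 407 to 545, which are too few for a correlation within either. On A_55_P2040026, Itga4 read 0.45 to 1.02 on the dimmer and 1.22 to 2.81 on the brighter KO chimera arrays, against 3.82 to 4.01 on controls over their whole range of brightness. On A_55_P2015670, Itga6 read 0.91 to 1.22 on the dimmer and 1.34 to 1.74 on the brighter KO chimera arrays. On either set of arrays both probes lay below every control, and the part of brightness in their spread among KO chimeras was not tested. With log2 brightness as a covariate the differences were -2.12 for Itga4 and -1.49 for Itga6 (limma adjusted p = 7.14e-06 and 3.95e-07). Within scan days 1 and 2, with 4 mice of each group per day, Itga4 differed by -2.75 and -2.05 and Itga6 by -1.67 and -1.41 (limma adjusted p at most 0.0203). Within the 5 slides that held both groups, Itga4 differed by -2.99 to -1.07 and Itga6 by -1.83 to -1.17.

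**Figure D4:**
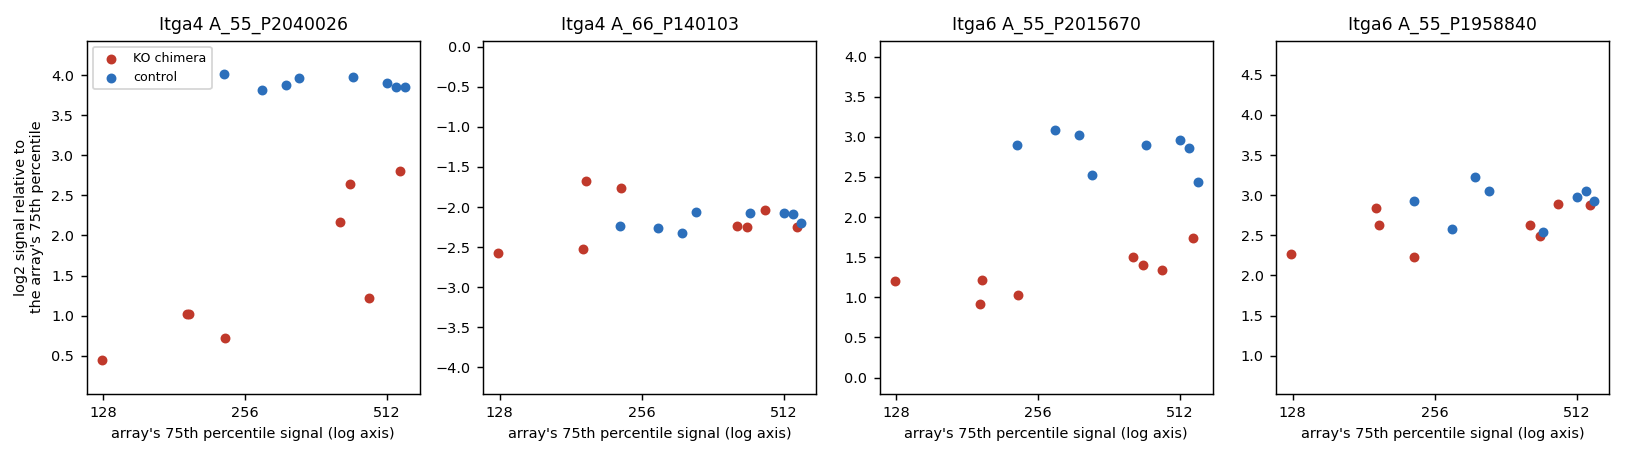
Level of both Itga4 and both Itga6 probes against the brightness of the array, its 75th percentile signal on a log axis; KO chimeras are red and controls blue, and all panels span the same range of log2 signal. In the panels of Itga4 A_55_P2040026 and Itga6 A_55_P2015670 KO chimeras lie lower on dim arrays and below the controls throughout, and in the other panels the groups mix.

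Subunits outside the 10 were read on the brightest probe of each gene, for which 22.3% of all 23061 gene names tested were called, 10.3% higher and 12.1% lower. Of 5 other beta chains 3 were measured, without Itgb6 and Itgb8, and all 3 were lower in KO chimeras. Itgb2l, a relative of Itgb2 in the neutrophil lineage, read 3.24 to 4.08 in KO chimeras and 5.39 to 6.05 in controls, a difference of -2.05 ± 0.14 (SE, limma adjusted p = 9.13e-09), and its other probe differed by -1.22. Itgb3, the platelet fibrinogen receptor's beta chain, fell by 1.57 ± 0.12 on the log2 scale and by 0.57 on its other probe, and Itgb4, the partner of Itga6 in epithelia, fell by 0.36 ± 0.11. Of 12 other alpha chains 8 were measured, with 1 higher (Itga1, a collagen receptor, 0.52 ± 0.16), 1 lower (Itga10, also a collagen receptor, -0.58 ± 0.13) and 6 that did not pass. Itga2b, the alpha partner of Itgb3 on platelets, differed by -0.52 ± 0.20 and did not pass (limma adjusted p = 0.0685). The median difference was -1.57 over the 3 other beta chains measured, which is the value of Itgb3 itself. It was -0.050 over the other alpha chains and -0.019 over all gene names.

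Of 25 measured genes that switch integrins on or tie them to the cytoskeleton, 3 were higher, 4 lower and 18 did not pass, with a median difference of 0.047. Talin (Tln1), which binds beta chain tails, read 6.41 to 6.83 in KO chimeras and 6.50 to 7.11 in controls, and Fermt3, the kindlin of blood cells, differed by 0.20 ± 0.11. Neither passed (limma adjusted p = 0.951 and 0.217). The small GTPase gene Rap1a rose by 0.46 ± 0.10 and the adaptor Pxn (paxillin), which binds the Itga4 tail, by 0.85 ± 0.14 (SE, limma adjusted p = 0.0038 and 0.000206). Parvg, a parvin of blood cells, fell by 0.56 ± 0.12. Itgb1bp1, whose product binds the Itgb1 tail, was 0.43 higher on its brightest probe and -1.59 on the other, so its probes disagreed as well.

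Among 17 measured ligands, 1 was higher, 2 were lower and 14 did not pass. Icam1, the ligand of LFA-1 and Mac-1, rose by 1.01 ± 0.18 (SE, limma adjusted p = 0.000593). Vcam1, the ligand of VLA-4, fell by 0.58 ± 0.16 on its brightest probe (SE, limma adjusted p = 0.0146), and its other probe differed by 0.24 (adjusted p = 0.384). F11r, a junctional molecule that binds LFA-1, fell by 0.98 ± 0.27, with 6 of 8 KO chimera arrays well above background. Of 14 measured homing and rolling molecules 3 were higher and 3 lower. Cxcr4, the receptor that retains cells in marrow, rose by 0.53 ± 0.09 and the selectin ligand Selplg fell by 0.47 ± 0.09 without overlap of the groups, while its other probe differed by -0.16 and did not pass (limma adjusted p = 0.409). Cd44, a hyaluronan receptor, was 0.57 higher on its brightest probe but -1.05 and 1.00 on other probes, and the tetraspanin gene Cd151, a partner of laminin-binding integrins, fell by 0.32 ± 0.07 on its brightest probe, its other probe differing by 0.38 (limma adjusted p = 0.138).

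**Figure D5:**
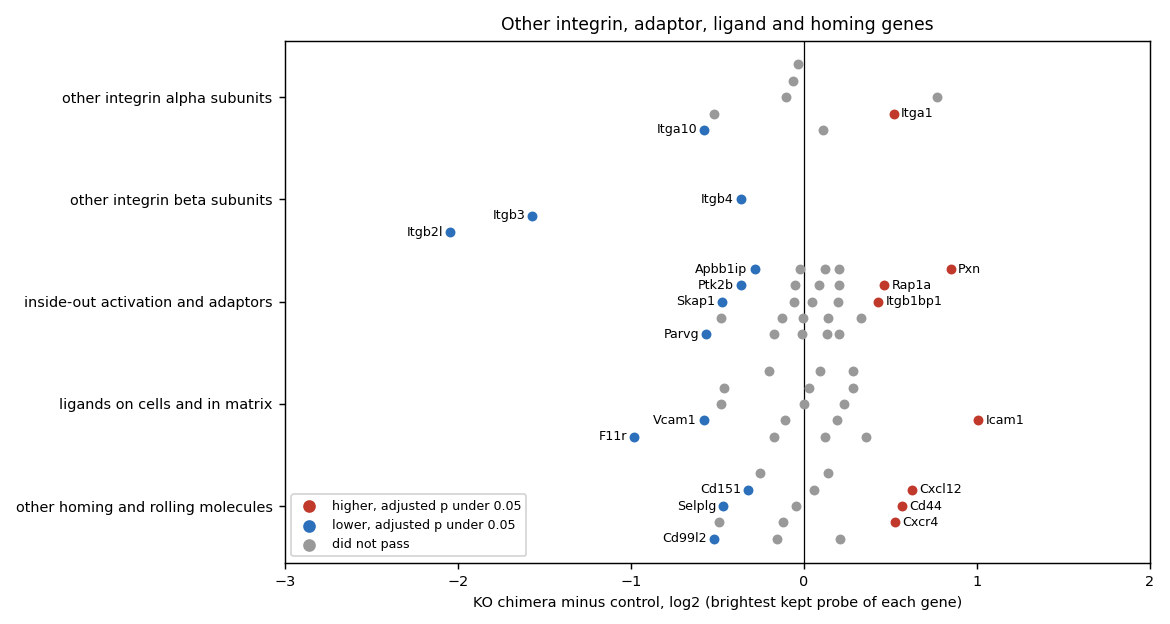
Log2 difference of each measured gene in 5 related lists (KO chimera minus control), on the gene's brightest tested probe. Genes that passed are named and coloured, and grey points did not pass. The 3 other beta subunits lie left of 0, with Itgb2l at -2.05 and Itgb3 at -1.57.

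Markers of some marrow cell types moved with these differences, and their part in them was not tested. Each marker was read on its brightest probe. The counts stand beside the 10.3% of all gene names called higher and the 12.1% called lower, and no list was tested against those shares. None of the 10 neutrophil markers passed on its brightest probe. Their summed level, on a linear scale where 1 equals the array's 75th percentile, was 2661 to 4108 in KO chimeras and 2852 to 3337 in controls. Dimmer probes of Mpo and Camp were higher in KO chimeras, by 1.08 and 0.47 (limma adjusted p = 0.00021 and 0.0262). Itga6 and Itgb3 are used by platelets and their precursors, and 7 of 10 megakaryocyte and platelet markers (Itgb3 among them) were lower, with a summed level of 22.0 to 50.9 in KO chimeras and 41.1 to 76.2 in controls. Itga4 is used by progenitors, lymphocytes, basophils and mast cells. Of 5 measured progenitor markers 4 were lower (summed level 9.09 to 12.6 in KO chimeras, 11.4 to 18.9 in controls), and of 6 basophil and mast cell markers 4 were lower (56.3 to 77.5 in KO chimeras, 84.0 to 130.5 in controls). Among T cell markers 1 of 8 was higher and 2 lower (summed level 30.1 to 48.9 in KO chimeras, 36.4 to 80.7 in controls). These T cell sums are not comparable, as missing values were left out of them. Cd4 had values in only 7 KO chimeras and Cd3e in only 7 controls, and Cd4 spanned 2.94 to 6.02 (log2) in controls. Among B cell markers 2 of 8 were higher (53.0 to 124.6 in KO chimeras, 46.5 to 126.1 in controls). Macrophage markers were lower for 6 of 9, monocyte markers higher for 2 of 6, and erythroid markers did not pass in any of 6. Of NK cell markers 1 of 6 was higher and 1 lower, of dendritic cell markers 2 of 5 were lower, and of endothelial markers 1 of 4 was higher and 1 lower. Mecom, Xcr1, Emcn and Tek were too dim to be tested, Ly6c2, Adgre1 and Trac had no probe under that name, and Itga2b, Itgb3, Vcam1, Fn1, Cxcr2 and Pecam1 stand both in a marker list and in a list above.

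Positions next to the members were checked on the files' mm9 coordinates, within 2 Mb on each side. Around Itga4, 3 of 29 other probes were called (10.3%), and around Itga6, 11 of 69 (15.9%), both below the 23.5% of all tested probes. Across the 10 loci the share ran from 9.30% at Itgav to 25.6% at Itgb5.

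The gene whose deviations from its group means followed each member most closely over the 16 arrays was also looked up, as a description that shares array quality between both sides. Each was the closest of 22282 features, a search that by itself yields high correlations, and no p was computed. The closest gene was Orai1 for Itgb2 (r = 0.93), Dnajc17 for Itga5 (r = 0.89), Nme4 for Itgb1 (r = 0.88), Fam129b for Itgb5 (r = 0.89) and 4930469K13Rik for Itgb7 (r = 0.92). For the other 5 members the closest feature has no gene symbol in the files (r = 0.84 to 0.96). None of the 5 named genes passed the comparison of KO chimeras with controls. Of the features without a symbol, those closest to Itga4 (on A_55_P2040026) and Itgav were lower in KO chimeras. Their differences were -1.59 ± 0.11 and -2.87 ± 0.95 (SE, limma adjusted p = 2.39e-08 and 0.0371). Both likenesses rested mostly on one group. For Itga4 r was 0.94 among KO chimeras and 0.32 among controls, and for Itgav it was 0.20 among KO chimeras and 0.93 among controls. The features closest to Itga6, Itgal and Itgam did not pass.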

How the data were processed

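Total RNA of marrow from 8 KO chimeras and 8 controls, separate mice per the labels, was labelled with Cy3 and hybridised to Agilent arrays. The deposited scanner files hold spot intensity, background-subtracted on a linear scale per the file headers; the software was Agilent Feature Extraction, version 10.7 by the submitters' processing notes but 10.1.1.1 in the headers themselves. The authors' deposited table holds log2 values, quantile normalized per the labels, and served as an alternative; how it was centred is not stated. Members and gene lists were chosen with earlier results of these data known.

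Log2 levels are processed signals divided by the 75th percentile of an array's gene probes. Outlier spots were left out, spots of a probe averaged, and probes kept if well above background on 6 of 8 arrays of either group with at least 3 values per group (32689 of 55681). No spot was saturated, and the number of arrays limits the precision. The test between groups was limma's (version 3.58.1, R 4.3.3, lmFit then eBayes, two-sided, Benjamini-Hochberg), a step also checked on simulated data, and pairs with exact permutation tests (Python 3.11.15, numpy 2.4.6). Named were all members with every probe, up to 4 called genes per list by smallest p, and the closest feature of each member; other list genes in the text were picked after their values were seen. Alternatives were quantile and normexp normalization, the authors' values, other filters, blocks for slide, scan day and replicate number, array brightness, array weights, a variance trend, subsets of arrays, other thresholds and leaving out each mouse; the second probe of alpha chains was added after seeing the data. Sequences and positions (mm9) are those of the files; no exon annotation of that build was used here.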

Additional observations from a re-analysis of the deposited data

Results flagged for a closer look

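Of 36 sets of 7 or 8 mice (18 integrin probes, each in both groups), 2 held a value farther from its neighbours than Dixon's 95% critical value allows; chance alone gives about 1 in 20 sets. For Itgb5 A_51_P327796, KO chimera replicate 6 was the highest of its group at 1.02, with the next at 0.13 (log2). The Itgb5 difference was -0.33 without that mouse and did not pass (limma adjusted p = 0.0609). For Itgb1 A_52_P351816, control replicate 5 was the lowest of its group at -2.13, with the next at -1.71, and the Itgb1 difference without that mouse was -0.042 (limma adjusted p = 0.815).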

How the results depend on the processing

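The lower calls of Itga4 A_55_P2040026 and Itga6 A_55_P2015670 kept their direction and side of the threshold under every alternative that tested them, at -2.75 to -2.05 and -1.67 to -1.41, and without any 1 mouse, at -2.59 to -2.25 and -1.61 to -1.49. Of 881 comparisons of single probes and pairs with an alternative, 840 left the call as it was, 33 lost a call and 6 gained one. The other 2 changed both direction and call, and the cause was not tested. These are not 881 separate checks. Slide as a block and slides with both groups alone gave the same values, and 13 of the 18 integrin probes had no call to lose. Some of the 840 changed direction without passing, such as Itgav A_55_P2039771, at -0.27 in the main fit and 0.099 with the normexp correction. Integrin probes called higher numbered 0, against 1, with the normexp correction, no filter, slide as a block, slides with both groups alone, the replicate block, brightness as a covariate, scan day 1, scan day 2, array weights, adjusted p under 0.01 and the brightest probe of each name only (which drops that Itgam probe), and 0 to 1 without any 1 mouse. Integrin probes called lower numbered 2, against 4, within scan day 1, within scan day 2 and at adjusted p under 0.01, and 4 without any 1 mouse. Over all probes, those higher numbered 1122 and 1837 within scan days 1 and 2, 2141 at adjusted p under 0.01, 2360 on the brightest probe of each name (fewer features tested) and 3241 to 3983 without any 1 mouse, against 3721. Those lower numbered 2125 with normexp, 1331 and 1622 within scan days 1 and 2, 2289 at adjusted p under 0.01 and 3363 to 4187 without any 1 mouse, against 3975. Probe pairs that passed numbered 4 to 5, and partner pairs 4 to 5, without any 1 mouse. The 2 that changed both direction and call were partner pairs read on the second alpha probe. Itga4 minus Itgb7 lost its call at 0.097, and Itgam minus Itgb2 gained one at 0.53 (exact test, adjusted p = 0.725 and 0.00062). Same-numbered mice did not vary together (correlations of -0.19 to 0.19, with 1 of 8 KO chimeras closest to its own number), and the main test did not pair them. Such correlations cannot show whether the numbers pair the mice by design. The replicate block called 3374 probes higher and 3638 lower, and under it Itgam A_55_P1977929 had a limma adjusted p of 0.110. Of the 18 integrin probes, 1 (Itgav A_55_P2039771) was not well above background on every array.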
